A study of Mus musculus with 8 samples.

Results

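Keratins, claudins and the other proteins of epithelial cell junctions are encoded by the 34 genes described here, of the 21608 gene symbols that the arrays name. They were chosen by name, as 5 keratins, 8 claudins, 7 other tight junction genes, 8 desmosome genes, 3 gap junction genes and 3 genes of epithelial adhesion and catenins, and every probe whose accession maps to one of them was taken, 40 of 39429 probes. All 34 were on the array, 28 of them on 1 probe and 6 on 2 probes. The study asked how irisin, a peptide cleaved from the membrane protein Fndc5, changes gene expression in AML12, a hepatocyte line from mouse liver. The 4 control samples were AML12 cells cultured for 24 h without irisin, and the 4 irisin samples were AML12 cells cultured for 24 h with 0.5 µg/ml irisin, all in the same medium with serum. Cy3-labeled RNA of each sample was put on its own one-color Agilent array. All samples come from 1 cell line, and the labels do not say whether replicates were separate cultures, so p-values measure the spread between these samples, which may be technical. Controls and irisin samples were run on different slides and scanned apart, and the effect of the slide or scan and that of the treatment cannot be told apart.

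Keratins are the intermediate filaments of epithelial cells, and each filament pairs a type I with a type II keratin. Krt8 and Krt18 form this pair in hepatocytes, while Krt7 and Krt19 are known as bile duct keratins. Tight junctions, built from claudins and occludin on ZO scaffold proteins, seal the bile canaliculus from the blood side of the cell, desmosomes anchor keratin filaments at the membrane, and gap junctions pass small molecules between neighboring hepatocytes.

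Signal is given as the log2 of the processed signal of a probe over the 75th percentile of signals on the same array, called the log2 level below, and a log2 change is the irisin mean minus the control mean. A value of 0 is thus the 75th percentile of all probes on that array, and the level of one probe is not set against that of another, because probes bind with unequal strength. The 75th percentile itself was 472 ± 70.1 intensity units (SD, n = 4) on control arrays and 783 ± 71.6 on irisin arrays. A gene was called when its brightest tested probe had a Benjamini-Hochberg adjusted p under 0.05 over all tested probes in limma and a change of at least 1.5-fold, which is 0.58 on the log2 scale. To be tested, a gene needed a probe well above background on every array of either group, and 28 of the 34 genes had one.

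Few of the tested junction genes were called, and which ones depended on how the arrays were scaled. With signals scaled to the 75th percentile, 0 of the 28 tested genes were called higher and 2 were called lower, the claudins Cldn14 and Cldn23. Over all 14308 tested genes, 0.531% were called higher and 10.2% lower, so the share of lower calls among these genes, 2 of 28, was near that of the whole array. Scaling to spike-in probes called 11 of the 28 higher and 0 lower. No scaling called 21 higher and 0 lower. Over the 24092 tested probes, 7490 were called higher with the spike-in probes and 14920 without scaling. Both gene counts hold Ocln and Gja1. Their probes were well above background on all 4 irisin arrays and on 1 and 0 control arrays. The other scalings are given below. A total of 6 of the 34 genes were not tested. With the adjusted p alone, 0 of the 28 were higher and 5 were lower, the 2 claudins with Krt18, Cldn7 and Pkp3, where 2.65% of all tested genes were higher and 17.9% lower. At an unadjusted p under 0.05 in limma, 1 of the 28 was higher (Marveld2) and 5 were lower. Of all 24092 tested probes, 8258 passed that threshold, in either direction. The test named in the study's methods called 0 higher and 2 lower. The median log2 change was -0.04 over the 28 genes and -0.06 over all tested genes. The 95% interval of the change lay wholly within 1.5-fold in either direction for 22 of the 28 genes, a share near the 75.2% of all tested genes. Among the 22 is Gja1, whose probe was not well above background on any control array, so that its interval bounds no change. The 6 genes whose interval reached further were Krt18, Cldn7, Cldn14, Cldn23, Pkp3 and Ocln.

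**Figure D1:**
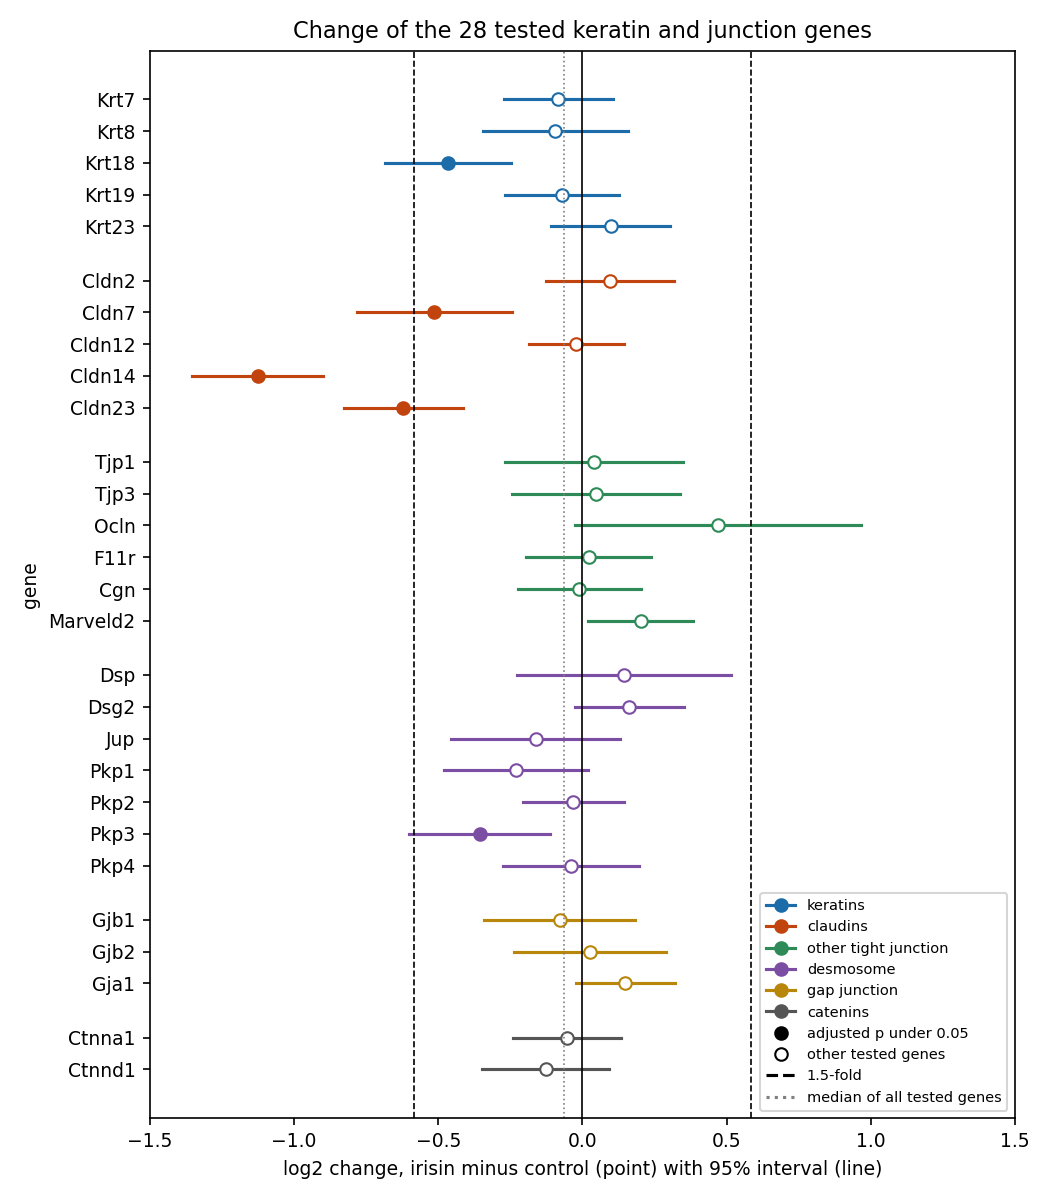
Log2 change of the 28 tested genes (x axis, irisin minus control, point) with its 95% interval (line), grouped and colored by role; filled points have an adjusted p under 0.05, dashed lines mark 1.5-fold and the dotted line the median of all tested genes. The filled points, Krt18, Cldn7, Cldn14, Cldn23 and Pkp3, all lie to the left of 0, and only Cldn14 has its whole interval beyond 1.5-fold.

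All 5 keratin genes were well above background on all 8 arrays, the bile duct keratins included, and 1 of them differed at the adjusted p, with none called. Krt18, the type I partner of Krt8, had log2 levels of 7.72, 7.53, 7.45 and 7.60 on the control arrays and 6.98, 7.32, 7.10 and 7.04 on the irisin arrays. The groups did not overlap, and the change was -0.47 ± 0.10 (SE, limma adjusted p = 0.00522, exact permutation p = 0.0286, two-sided over 70 assignments of the arrays, the smallest that 4 against 4 arrays can give). Without scaling, the processed signal of Krt18 was 78410, 89962, 93353 and 96455 intensity units on the control arrays and 100681, 108721, 109946 and 111891 on the irisin arrays, so every irisin array lay above every control array. Its probe ranked 15 by mean signal among the tested genes, and the 144 tested genes in the brightest 1% had a median log2 change of -0.39, with 112 of them lower at the adjusted p (77.8%) and 0 higher. The part of brightness in the lower Krt18 level was not tested.

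Krt8, the type II partner, had log2 levels of 5.73, 5.76, 5.66 and 5.35 on the control arrays and 5.52, 5.74, 5.43 and 5.44 on the irisin arrays. These ranges overlapped, with a change of -0.09 ± 0.11 (SE, limma adjusted p = 0.624) and a 95% interval from -0.35 to 0.16. Because no scaling factor changes a ratio within an array, the log2 ratio of Krt18 to Krt8 signal was also taken on each array, of which only the change can be read. It was 1.99, 1.77, 1.79 and 2.25 on the control arrays and 1.47, 1.58, 1.66 and 1.60 on the irisin arrays. The ratio was lower on every irisin array than on any control array, by 0.37 in the means (exact permutation p = 0.0286). Cyclic loess also kept the groups apart, with a difference of -0.28 (exact permutation p = 0.0286). After quantile normalization the groups overlapped, with a difference of -0.19 (exact permutation p = 0.114). A ratio within an array keeps any shift that depends on brightness. The brightest 1% of tested genes, which hold Krt18, had a median change of -0.39. Krt8 ranked 409 by mean signal, in the brightest of 10 equal groups, whose median was -0.15. The part of brightness in the lower ratio was not tested.

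Krt7 had log2 levels of 0.11, 0.18, 0.19 and 0.10 on the control arrays and -0.03, 0.23, -0.02 and 0.06 on the irisin arrays. Krt19, its type I counterpart in bile ducts, was at 5.27, 5.20, 5.47 and 5.37 on control and 5.13, 5.35, 5.28 and 5.26 on irisin arrays. In both genes the groups overlapped, with changes of -0.08 ± 0.09 (SE, limma adjusted p = 0.55) and -0.07 ± 0.09 (SE, limma adjusted p = 0.647). Krt23, a type I keratin of simple epithelia, had a change of 0.10 ± 0.09 (SE, limma adjusted p = 0.523) on a dim probe. The intervals of Krt7, Krt8, Krt19 and Krt23 all lay within 1.5-fold.

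Krt18 was compared with its filament partner above, and Cldn14 had the largest change here. The promoters of Krt8, Krt18 and Cldn14 are therefore shown. They are RefSeq sequences of GRCm38.p6, each 300 bases long from 250 bases before to 50 after an annotated start and read 5′ to 3′ on the strand of the gene. Krt8 is from chr15:102004293-102004592 (minus strand) and Krt18 from chr15:102027966-102028265 (plus strand). Cldn14 has 3 annotated starts, of which those of chr16:94008788-94009087 and chr16:93929768-93930067 (minus strand) are shown. Capitals mark the letters searched on both strands, which were CACCTG or CAGGTG (the E-box read by SNAI and ZEB repressors), AACCGG or CCGGTT (the core of the GRHL site) and GGAATG or CATTCC (TEAD).
Krt8: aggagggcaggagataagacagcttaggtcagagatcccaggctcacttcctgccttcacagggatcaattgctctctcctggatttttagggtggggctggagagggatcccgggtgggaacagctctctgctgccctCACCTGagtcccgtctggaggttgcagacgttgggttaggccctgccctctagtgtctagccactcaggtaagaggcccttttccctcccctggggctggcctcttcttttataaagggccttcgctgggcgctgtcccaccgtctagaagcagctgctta
Krt18: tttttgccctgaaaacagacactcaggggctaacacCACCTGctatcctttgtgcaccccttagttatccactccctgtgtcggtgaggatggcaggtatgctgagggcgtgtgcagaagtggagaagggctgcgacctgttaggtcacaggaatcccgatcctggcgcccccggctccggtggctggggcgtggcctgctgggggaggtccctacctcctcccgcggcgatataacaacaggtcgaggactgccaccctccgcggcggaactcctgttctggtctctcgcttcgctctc
Cldn14, first start: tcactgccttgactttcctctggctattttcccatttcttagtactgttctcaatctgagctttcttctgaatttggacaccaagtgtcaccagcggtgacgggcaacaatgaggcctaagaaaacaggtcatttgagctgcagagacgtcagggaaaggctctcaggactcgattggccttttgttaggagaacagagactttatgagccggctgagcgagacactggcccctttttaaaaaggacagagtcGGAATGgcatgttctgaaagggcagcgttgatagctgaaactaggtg
Cldn14, second start: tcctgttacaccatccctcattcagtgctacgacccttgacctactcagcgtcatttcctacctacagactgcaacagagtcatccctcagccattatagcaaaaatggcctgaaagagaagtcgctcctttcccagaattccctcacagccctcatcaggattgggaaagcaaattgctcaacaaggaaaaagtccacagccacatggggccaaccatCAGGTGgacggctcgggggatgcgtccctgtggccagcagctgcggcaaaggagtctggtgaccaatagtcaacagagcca
Krt8 and Krt18 each hold 1 E-box, CACCTG, which begins at position -111 in Krt8 and -214 in Krt18, counted from the start with no position 0. The second Cldn14 start holds CAGGTG at position -31, the first holds GGAATG at position 4, and the third, of chr16:93929518-93929817 and not shown, holds CCGGTT at position -62. The promoter table holds 25 of the 34 genes with 38 promoters, and an E-box stands in 20 of these (52.6%), in 17 genes, against 20.2% of all 32851 promoters. For the GRHL core the shares were 13.2% and 6.83%, and for TEAD 13.2% and 14.7%. These are matches of letters in a window and no binding was measured.

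Of the 8 claudin genes, 5 were tested, of which 2 were called lower, 1 more was lower at the adjusted p, and 2 had intervals within 1.5-fold. All 3 of the lower claudins lay on dim probes. Over all tested genes 10.2% were called lower and 17.9% were lower at the adjusted p. Among the dimmest (the 3 lowest of 10 equal groups by brightness) 31.6% were called lower. In group 2 from the dim end, which holds all 3 claudins, 46.8% of genes were lower at the adjusted p. Cldn14, a claudin known from the inner ear, kidney and liver, had log2 levels of -4.53, -4.51, -4.48 and -4.38 on the control arrays and -5.56, -5.88, -5.51 and -5.46 on the irisin arrays. Every irisin array lay below every control array, and the change of -1.13 ± 0.10 (SE, limma adjusted p = 0.000106, exact permutation p = 0.0286) is 2.18-fold lower. Its processed signal before scaling was 16.1, 21.4, 23.9 and 23.9 intensity units on the control arrays and 16.9, 11.6, 17.7 and 19.3 on the irisin arrays. These ranges overlapped, although the unscaled mean was lower with irisin (21.3 and 16.4), while the 75th percentile of the array was higher.

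Cldn23 had log2 levels of -4.25, -4.30, -4.23 and -4.13 on the control arrays and -4.92, -4.74, -5.03 and -4.72 on the irisin arrays. The groups did not overlap and the change was -0.62 ± 0.09 (SE, limma adjusted p = 0.000733, exact permutation p = 0.0286), or 1.54-fold lower. Without irisin replicate 3 the change was -0.56, under the threshold of fold. Cldn7, a claudin found along the lateral membrane of many epithelia, had log2 levels of -4.44, -4.74, -4.41 and -4.26 on the control arrays and -5.15, -4.79, -4.88 and -5.08 on the irisin arrays. Its change of -0.51 ± 0.12 (SE, limma adjusted p = 0.00996, exact permutation p = 0.0286) did not reach 1.5-fold. The unscaled mean signals of Cldn23 were 25.2 and 27.2 and those of Cldn7 21.6 and 24.9 in the control and irisin arrays, so that neither was lower before scaling.

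**Figure D2:**
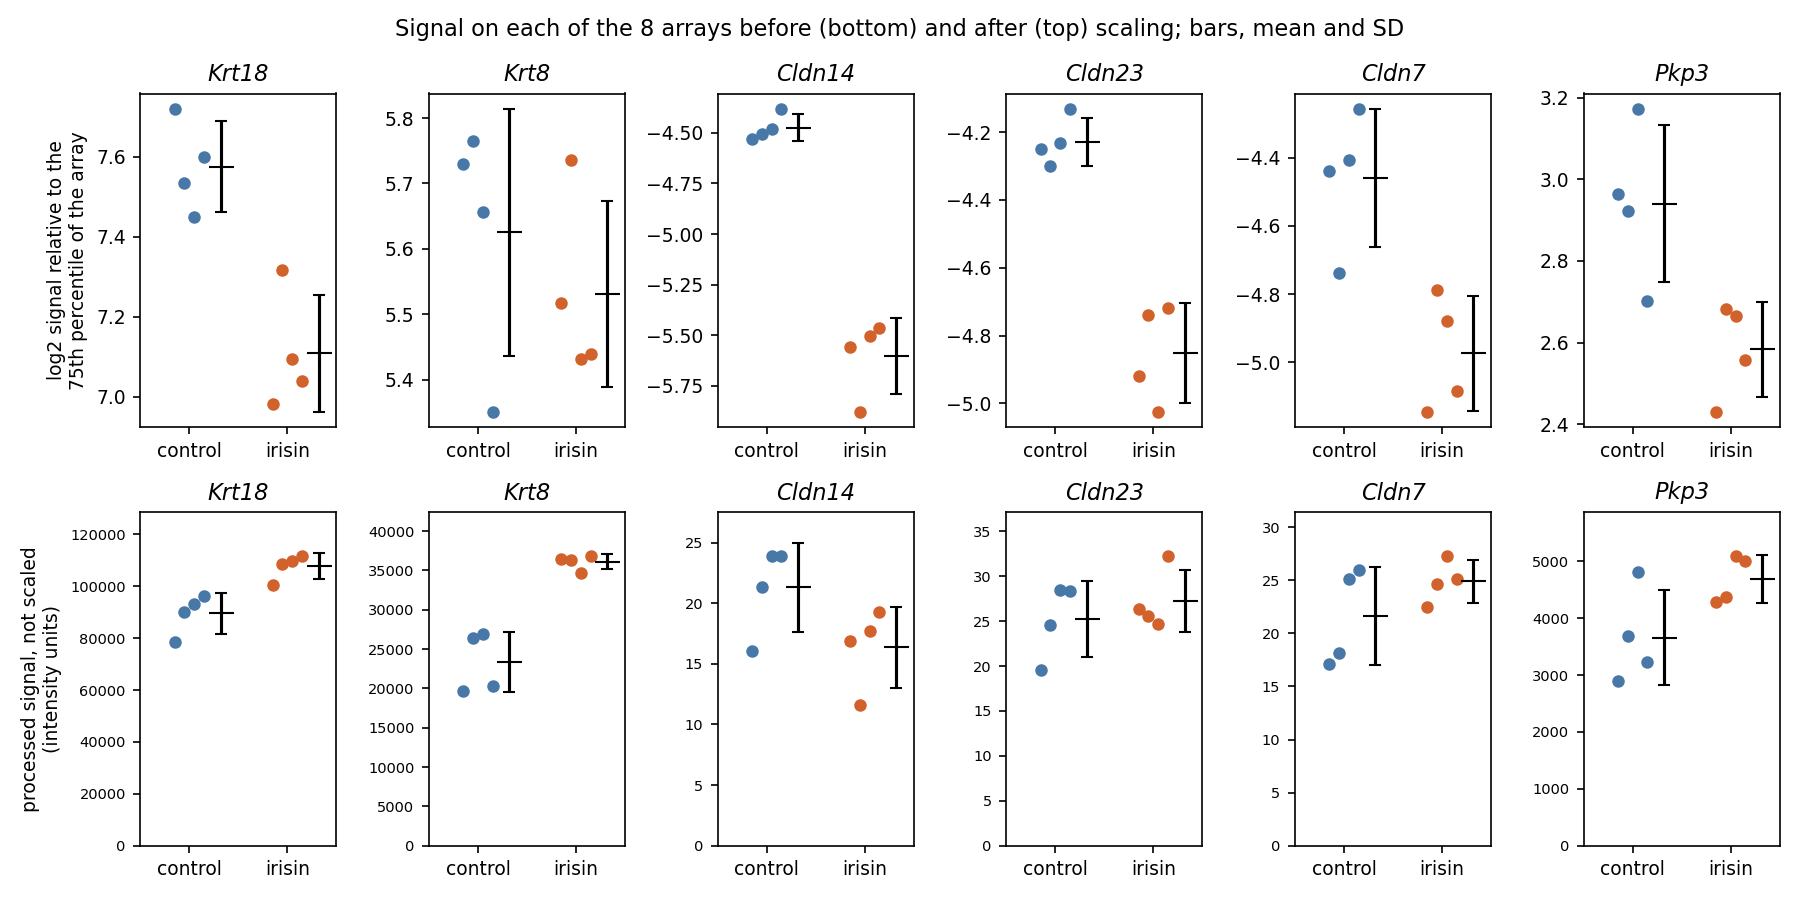
Signal of 6 genes on each of the 8 arrays (points; bars, mean and SD of 4 arrays). The top row gives the log2 level and the bottom row the unscaled processed signal in intensity units from 0. In the top row Krt18, Cldn14, Cldn23, Cldn7 and Pkp3 do not overlap between groups, and the share of all tested genes without overlap was not counted. In the bottom row only Cldn14 has a lower mean with irisin.

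Cldn2, which forms a pore for cations and water, was at 2.75, 2.86, 3.08 and 2.75 on the control arrays and 2.87, 2.89, 3.12 and 2.95 on the irisin arrays. The ranges overlapped, with a change of 0.10 ± 0.10 (SE, limma adjusted p = 0.568). Its second probe, also well above background on all 8 arrays, had the opposite sign at -0.07 ± 0.11 (SE, limma adjusted p = 0.712), so no direction can be given for Cldn2. Cldn12, a broadly expressed claudin, had a change of -0.02 ± 0.07 (SE, limma adjusted p = 0.884).

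Cldn1, a main barrier claudin of liver, was not well above background on any array. Its processed signal was 1.05, 1.04, 1.02 and 1.05 intensity units on the control arrays and 1.06, 1.09, 1.08 and 1.07 on the irisin arrays, and the median negative control spot averaged 18.3 and 19.5 before background was subtracted. Cldn3 and Cldn4 were likewise not well above background on any array, for Cldn4 on both of its probes. The arrays give no change for these 3 claudins, which is a limit of detection by these probes and no measure of absence.

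Of the 7 other tight junction genes, 6 were tested and 0 called, with changes from -0.01 to 0.47 and with 5 intervals wholly within 1.5-fold. Tjp1, the ZO-1 scaffold that ties claudins to actin, was at 3.81, 3.72, 3.65 and 3.60 on the control arrays and 3.76, 3.32, 4.06 and 3.80 on the irisin arrays. The irisin values enclosed all control values, and the change was 0.04 ± 0.14 (SE, limma adjusted p = 0.879), with an interval from -0.27 to 0.35. F11r, the junctional adhesion molecule JAM-A, was at 5.34, 5.15, 5.16 and 5.23 on control and 5.13, 5.48, 5.15 and 5.21 on irisin arrays, a change of 0.02 ± 0.10 (SE, limma adjusted p = 0.909). The scaffold Tjp3 (ZO-3) and cingulin, Cgn, had changes of 0.05 and -0.01.

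Marveld2 encodes tricellulin at the corners where 3 cells meet. It was at -2.65, -2.53, -2.58 and -2.68 on the control arrays and -2.27, -2.49, -2.43 and -2.43 on the irisin arrays, with a change of 0.20 ± 0.08 (SE, limma adjusted p = 0.107). These groups did not overlap, but how many genes of the whole array do so was not counted, here or for the other genes named. Marveld3, a relative of Marveld2, was not well above background on any array with either of 2 probes.

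Occludin, Ocln, was at -6.84, -6.63, -7.51 and -6.92 on the control arrays and -7.08, -6.32, -6.14 and -6.49 on the irisin arrays. Its probe was well above background on 1 of 4 control arrays and 4 of 4 irisin arrays, and the groups overlapped. The change was 0.47 ± 0.22 (SE, limma adjusted p = 0.167), with an interval from -0.02 to 0.96 that reaches beyond 1.5-fold on the higher side. Its processed signal was 3.23, 4.90, 2.93 and 4.10 intensity units on the control arrays and 5.87, 8.50, 11.4 and 9.48 on the irisin arrays, and the other Ocln probe stayed at background on all 8 arrays. Without irisin replicate 1 the change was 0.66 (limma, adjusted p = 0.0328), past both thresholds. With only 1 control array well above background, none of these values is a measured fold for Ocln.

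Of the 8 desmosome genes, 7 were tested and 0 called, with changes from -0.36 to 0.16. Dsp, desmoplakin, links the desmosome to keratin filaments, and was at 1.29, 1.17, 1.63 and 1.37 on the control arrays and 1.37, 1.11, 1.91 and 1.65 on the irisin arrays. These ranges overlapped, with a change of 0.14 ± 0.17 (SE, limma adjusted p = 0.61). Its second probe was well above background on 2 of 4 arrays in each group and was not tested. Jup, plakoglobin, shared by desmosomes and adherens junctions, was at -3.81, -3.52, -3.69 and -4.06 on control and -3.80, -3.74, -4.12 and -4.07 on irisin arrays, overlapping, with a change of -0.16 ± 0.13 (SE, limma adjusted p = 0.445).

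Pkp3, a plakophilin that binds desmoplakin and the desmosomal cadherins, was the desmosome gene that differed at the adjusted p. It was at 2.96, 2.92, 3.17 and 2.70 on the control arrays and 2.43, 2.68, 2.67 and 2.56 on the irisin arrays, without overlap, and the change was -0.36 ± 0.11 (SE, limma adjusted p = 0.0376, exact permutation p = 0.0286). The adjusted p rested on most of the arrays, being between 0.0557 and 0.100 in the 6 fits without control replicate 1, 2 or 3 or without irisin replicate 1, 3 or 4, while the change stayed between -0.44 and -0.28 with any 1 array left out. In the decile of brightness that holds its probe 2.24% of genes were lower at the adjusted p.

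The other plakophilins Pkp1, Pkp2 and Pkp4 had changes of -0.23, -0.03 and -0.04. The desmosomal cadherin Dsg2 had changes of 0.16 and 0.13 on its 2 probes, neither past the adjusted p, and its partner Dsc2 was not well above background on any array. Pkp1 passed the adjusted p without irisin replicate 2 (-0.31; limma, adjusted p = 0.0393), as did Dsg2 (0.23; limma, adjusted p = 0.0356).

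None of the 3 gap junction genes was called. Gjb1, connexin 32 and the main connexin of hepatocytes, was at 2.76, 2.79, 3.01 and 3.07 on the control arrays and 2.70, 3.08, 2.64 and 2.90 on the irisin arrays. The ranges overlapped, with a change of -0.08 ± 0.12 (SE, limma adjusted p = 0.704). Gjb2, connexin 26, had a change of 0.03 ± 0.12 (SE, limma adjusted p = 0.912). Gja1, connexin 43, which is more typical of non-parenchymal cells, was at -7.01, -7.09, -7.10 and -6.93 on control and -6.94, -6.90, -6.87 and -6.82 on irisin arrays. Its probe was not well above background on any control array and was on all 4 irisin arrays, but the irisin mean of -6.88 lay below the floor of -6.69 that the control arrays could resolve, so no fold can be given (limma, adjusted p = 0.21).

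Ctnna1, alpha-catenin, joins cadherins to actin and was at 6.03, 5.79, 5.94 and 5.82 on the control arrays and 5.83, 5.91, 5.76 and 5.87 on the irisin arrays. Ctnnd1, p120-catenin, stabilizes cadherins at the membrane and was at 5.10, 5.03, 5.17 and 5.18 on control and 5.02, 5.19, 4.77 and 5.01 on irisin arrays. Both overlapped between groups, with changes of -0.05 ± 0.08 (SE, limma adjusted p = 0.723) and -0.13 ± 0.10 (SE, limma adjusted p = 0.42), and both intervals lay within 1.5-fold. Epcam, an adhesion molecule of bile duct and progenitor cells, was well above background on 0 of 4 control arrays and 2 of 4 irisin arrays and was not tested. Its processed signal was 2.60, 2.40, 4.09 and 3.99 intensity units on the control arrays and 5.73, 5.09, 7.23 and 5.40 on the irisin arrays.

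The lower calls stood on dim probes. When the tested genes were split into deciles by mean log2 level, 9 of the 28 genes fell in the 3 dimmest deciles and 19 in the 7 brighter ones. Of the 9, 2 were called lower, where 31.6% of all tested genes in these deciles were. Of the 19, 0 were called in either direction, where 1.51% of all tested genes in the brighter deciles were. The median change over all tested genes was -0.57, -0.30 and -0.09 in the 3 deciles from the dim end upward, between -0.05 and 0.01 in the next 6, and -0.15 in the brightest. Cldn14, Cldn23 and Cldn7 lay in decile 2 from the dim end, where the 10th and 90th percentiles of the change were -0.93 and 0.18, so that of the 3 only Cldn14 was below this range. The brighter members outside Krt18 and Pkp3 had changes between -0.13 and 0.20. The part of the array-wide trend in the lower claudin levels was not tested.

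**Figure D3:**
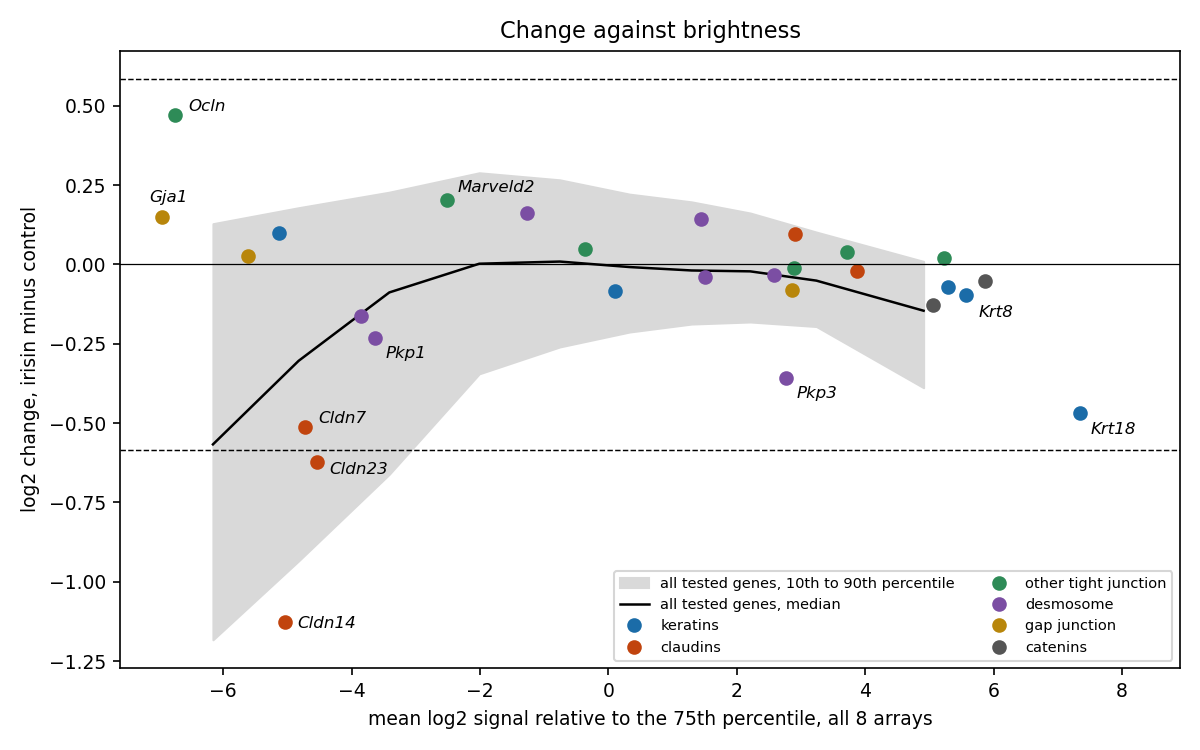
Log2 change (y axis, irisin minus control) against mean log2 level over the 8 arrays (x axis) for the 28 tested genes, colored by role; the black line is the median of all tested genes in deciles of brightness, the gray band their 10th to 90th percentile and dashed lines 1.5-fold. Cldn14 lies below the band on the dim side, at -1.13, and Pkp3 below it on the bright side. Krt18 lies beyond the bright end of the band, and Ocln, at 0.47, beyond its dim end.

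Which of these genes were called turned on how the arrays were scaled. Over all tested probes, 172 were called higher and 2815 lower with the 75th percentile, 670 and 1021 after quantile normalization, 699 and 926 after cyclic loess, 7490 and 372 with scaling to 8 spike-in probes, and 14920 and 162 without scaling. With the 75th percentile, the count of higher probes was 353 without irisin replicate 2 and 103 without irisin replicate 3, and that of lower probes stayed between 2662 and 3088 with any 1 array left out. The median change over all tested probes was -0.08, 0.01, 0.02, 0.49 and 0.66 in the same order. Among the 28 genes, 0 were called higher and 2 lower with the 75th percentile, 2 and 1 after quantile normalization, 2 and 1 after cyclic loess, 11 and 0 with the spike-in probes, and 21 and 0 without scaling. The median of the 28 genes lay between 0.04 and 0.05 above the median of all tested probes in each of these 5 settings. With the 75th percentile, the spike-in probes and no scaling this gap is alike by construction, because they differ only by 1 factor per array.

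Cldn14 was the one gene lower in all 5 settings, at -1.13, -0.80, -0.76, -0.56 and -0.39, and was called in the first 3 of them. With normexp, a background correction given at the end and not among the 5, Cldn14 was at 0.33 (limma, adjusted p = 0.676). After quantile normalization 3.82% of all tested genes were called lower, and 3.41% after cyclic loess. Taken from the median of all tested probes, which itself moved, Cldn23 was below it in all 5 settings. So were Cldn14, Krt18, Cldn7, Pkp3, Pkp1 and Krt7. The percentile, spike-in and unscaled settings differ only by 1 factor per array. The distance of a gene from this median is therefore alike in them by construction. For each of these genes they count as 1 check, beside quantile normalization and cyclic loess. The change of Cldn23 itself was 0.12 without scaling. Krt18 was at -0.47, -0.04, -0.20, 0.10 and 0.27 in the same order, so that the direction of its own change is not settled. Cldn7 and Pkp3 also turned, from -0.51 and -0.36 to 0.056 and 0.21 with the spike-in probes. The genes called higher by quantile normalization and by cyclic loess were Ocln (1.09 and 1.02) and Gja1 (0.80 and 0.72), whose probes exceeded background clearly on 1 and 0 of the 4 control arrays, so that these values are no measured folds.

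**Figure D4:**
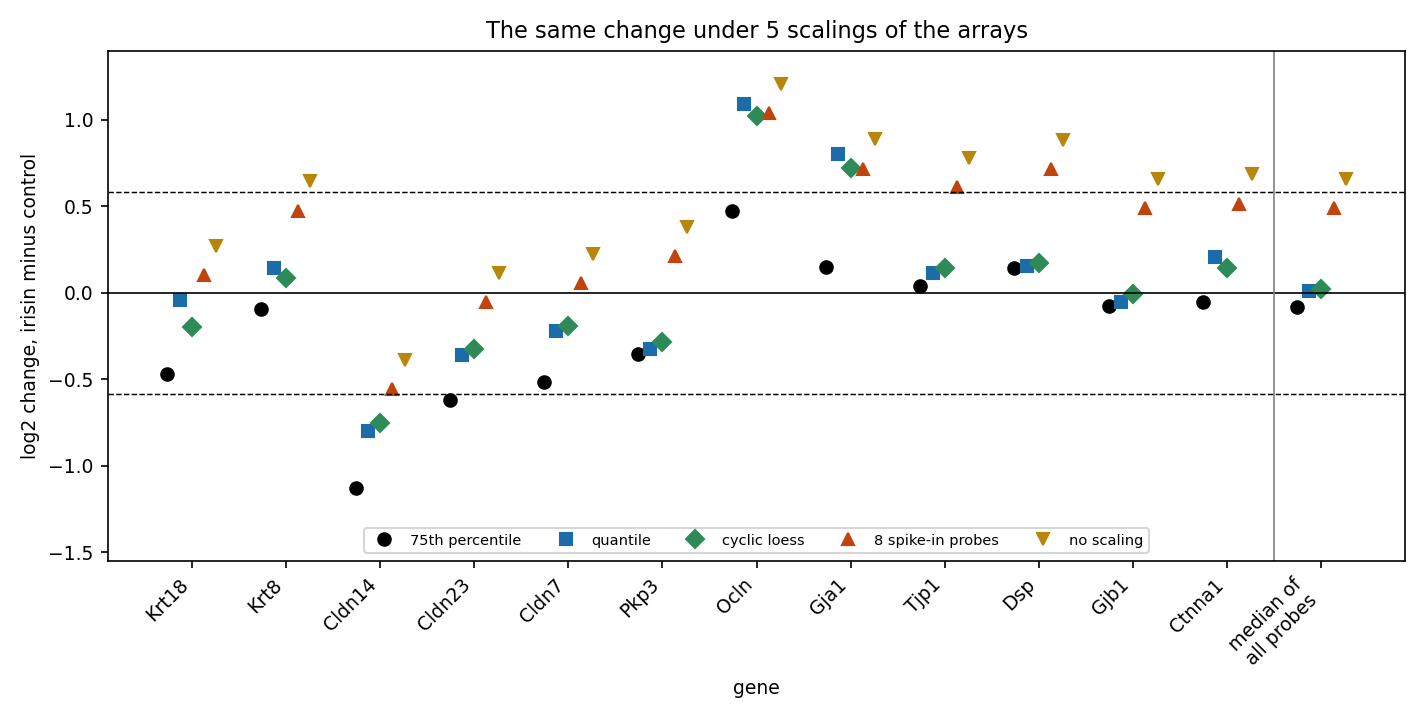
Log2 change (y axis, irisin minus control) of 12 genes and, at the right, the median of all tested probes under 5 scalings of the arrays (symbols); dashed lines mark 1.5-fold. Cldn14 lies below 0 under each of these 5 scalings, Krt18, Cldn7, Cldn23 and Pkp3 cross 0, and Ocln lies above 0 under each of these 5.

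Other genes of the same families were followed in 6 lists with 75 genes, of which 50 were tested. A total of 0 were called higher and 6 lower, beside 10.2% of all tested genes, and the median change was -0.14. The 6 were Krt5, Krt14, Krt15 and Krt80, all keratins of stratified or other epithelia, Ildr2, a protein of tricellular contacts, and Gja3, connexin 46. Their changes were -0.98, -0.94, -0.84, -0.81, -0.91 and -1.01, and all 6 lay in the 3 dimmest deciles, where 17 of the 50 genes lay. Of the 9 keratins tested here, 8 were lower at the adjusted p, beside 17.9% of all tested genes. Among the 9, 5 lay in the 3 dimmest deciles. From the dim end upward, 57.3%, 46.8% and 26.5% of all tested genes in these deciles were lower at the adjusted p. Of the 8, 4 were called, all 4 among the dimmest genes, of which 31.6% were called lower over the whole array. The median of the 9 keratins was -0.58. Of the 33 brighter genes in the lists, 0 were called and the median was -0.04. Among the adherens junction genes, Cdh1 (E-cadherin) had a change of -0.19 (limma, adjusted p = 0.141) and Ctnnb1 (beta-catenin) of -0.04, with 0 of 9 called. Nectin3 in this list was at 0.42 (limma, adjusted p = 0.00871), short of 1.5-fold. At the adjusted p alone, 1 of the 50 genes was higher, Nectin3, and 13 were lower, beside 2.65% and 17.9% of all tested genes. In the tight junction list Crb3, a polarity protein, was at -0.52 (limma, adjusted p = 0.00416), short of 1.5-fold. With the spike-in probes 14 of these genes were called higher and 0 lower, and without scaling 25 and 0. Over the 24092 tested probes, 7490 and 14920 were called higher in these settings.

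Markers of hepatocytes and of bile duct epithelium were both detected in the RNA of these samples. Each sample is RNA of many cells, so this does not show that single cells carry both. Of 12 hepatocyte markers, 11 were well above background on all 8 arrays, all but Cps1, and of 7 bile duct markers 6 were, all but Cftr. Over the whole array 13724 of 21608 genes were. In the 3 dimmest deciles lay 4 of these hepatocyte and 2 of these bile duct markers. Outside the list, the bile duct keratins Krt7 and Krt19 were detected on all 8 arrays. Epcam was on 0 of 4 control and 2 of 4 irisin arrays. Of 9 fibroblast and stellate markers 3 were (Col1a1, Col1a2 and Vim), of 7 endothelial markers 2 (Pecam1 and Kdr), and of 8 macrophage and leukocyte markers 3 (Cd68, Csf1r and Cd3e). The summed level of the bile duct list, in units of the 75th percentile, was 87.7 to 96.9 on the control arrays and 76.2 to 84.8 on the irisin arrays, and that of the fibroblast list 70.2 to 74.1 and 51.4 to 58.7. The hepatocyte list summed to between 217 and 249 in controls and between 196 and 226 with irisin, the endothelial list to between 0.705 and 0.792 and between 0.416 and 0.587, and the leukocyte list to between 0.737 and 0.850 and between 0.582 and 0.703. Each sum adds signals on a linear scale, so bright probes weigh most. In the fibroblast list Vim averaged 34272 intensity units on the control arrays, and Col1a1 and Col1a2 12.8 and 27.9. In the bile duct list Anxa4 averaged 34830, and Spp1, the next brightest tested gene, 5577. The log2 changes of Vim and Anxa4 were -0.40 and -0.32. Before scaling both were higher with irisin, at 42986 and 46397 intensity units, as was the hepatocyte marker Trf (54663 and 69503 on control and irisin arrays). The 75th percentile that divides the sums was 472 on control and 783 on irisin arrays. In the brightest decile, which holds these genes, 19.1% of all tested genes were lower at the adjusted p. A sum led by 1 gene is no measure of a cell type. Fewer cells of a type and less RNA per cell cannot be told apart in such samples, and the part of these lists in the changes above was not tested.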

How the data were processed

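The authors deposited the Agilent Feature Extraction output (12.0.3.1 in the file headers) of 8 one-color arrays as signal intensity on a linear scale, with the background subtracted and spatial trends corrected but with no normalization between arrays, and a value table of the same processed signals. Outlier and control spots were dropped, the spots of each probe averaged, and signals divided by the 75th percentile of their array before taking log2. Accessions of 28657 of 39429 probes (72.7%) matched the RefSeq gene table of GRCm38.p6. A total of 24092 probes passed the filter on dim probes (all 4 arrays of either group well above background) and were fitted with limma 3.58.1 (lmFit and eBayes, R 4.3.3), two-sided, with Benjamini-Hochberg adjustment. The brightest tested probe stood for its gene. Between 59.5% and 64.1% of probes were well above background on an array and 0 spots were saturated, and 4 arrays a group limit the precision. Lists are described by counts and medians, with no test of a list. The genes, the lists, the rule for naming genes and the settings tried were chosen with earlier results of these data known. Values are printed for every array for genes past the adjusted p and for 16 genes set by name, and other genes are given by counts and ranges. The fits were repeated with normexp (offset 50), quantile, cyclic loess, median, spike-in and no scaling, the value table, 2 filters, marked spots kept, trend and robust eBayes, the replicate block, arrays left out, the adjusted p alone, the methods' test and the mean over probes. An offset of 50 added to the processed signal was chosen after seeing the data. The fits were tested on simulated data. Tables and plots were made in Python 3.11.15 (pandas 2.3.3, matplotlib 3.10.9).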

Additional observations from a re-analysis of the deposited data

Results flagged for a closer look

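The values of the 28 tested genes were searched for a single array that stood far from the other 3 of its group, in 56 groups of 4 arrays. Chance alone gives such a result in about 1 in 20 groups, and 1 was found. Dsg2, a desmosomal cadherin, had a log2 level of -1.37 on irisin replicate 2, while the other irisin arrays lay between -1.13 and -1.11. Without this array the change of Dsg2 was 0.23 in place of 0.16.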

How the results depend on the processing

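With the replicate number as a block, the fit called 0 genes of the 28 higher, 2 lower, 3004 probes in all and 6 related genes, and it kept each of the 28 genes on its side of the adjusted p. The numbers do not pair the arrays, since same-numbered arrays deviated together with correlations of 0.13, -0.38, -0.14 and 0.18. The slide or scan could not be fitted as a block, because each holds 1 group.

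In the 75th-percentile fit 0 of the 28 genes were called higher, 2 lower, 2987 probes in all and 6 related genes. Median scaling over detected probes, the value table, the stricter filter, marked spots kept, trend and robust eBayes, the methods' test and the mean over probes kept each count they were run for within 1.5 times, with Cldn14 and Cldn23 called lower in every one. With 1 array left out, between 0 and 1 genes were called higher (Ocln, without irisin replicate 1) and between 1 and 3 lower, Cldn14 in each fit, Cldn23 in all but the fit without irisin replicate 3, and Cldn7 without control replicate 2. Probes called ranged from 2790 to 3438, those called higher from 103 (without irisin replicate 3) to 353 (without irisin replicate 2), and related genes from 6 to 9.

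The adjusted p alone gave 5 lower, 5909 probes and 14 related genes. Without a filter 4 genes were lower (with Cldn1 and Cldn4, which are not well above background), 12934 probes and 24 related genes. Quantile normalization gave 2 higher, 1 lower, 1691 probes and 3 related genes, and cyclic loess 2 higher, 1 lower, 1625 probes and 1 related gene. Spike-in scaling gave 11 higher, 0 lower, 7862 probes and 14 related genes, and changed the sign of 15 of the 28 genes. Of these, 10 were not past the adjusted p in either fit, and the other 5 were Krt18 at 0.10, Cldn7 at 0.056, Cldn12 at 0.55, Cgn at 0.56 and Pkp3 at 0.21. No scaling gave 21 higher, 0 lower, 15082 probes and 25 related genes, and turned 16 genes, Krt7 to 0.65, Krt8 to 0.64, Krt18 to 0.27, Krt19 to 0.67, Cldn7 to 0.22, Cldn12 to 0.72, Cldn23 to 0.12, Cgn to 0.73, Jup to 0.58, Pkp1 to 0.51, Pkp2 to 0.71, Pkp3 to 0.38, Pkp4 to 0.70, Gjb1 to 0.66, Ctnna1 to 0.69 and Ctnnd1 to 0.61. No scaling keeps the greater brightness of the irisin arrays by its construction, and the cause under spike-in scaling was not tested. At an unadjusted p under 0.05 in limma, 21 of the 28 genes were higher and 1 lower with spike-in scaling, and 24 higher and 1 lower with no scaling. Of all 24092 tested probes, 14069 and 19731 passed that threshold in the same order, in either direction. Quantile normalization changed the sign of 7 genes and cyclic loess of 8, none past the adjusted p in either fit.

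Normexp called 0 genes, 0 probes and 0 related genes. At an unadjusted p under 0.05 in limma, 5 of the 28 genes were lower and 0 higher in this fit. Of all 24092 tested probes, 4104 passed that threshold, in either direction. Normexp changed the sign of 8 genes. Of these, 5 were not past the adjusted p in either fit and 3 were Cldn7 at 0.36, Cldn14 at 0.33 and Cldn23 at 0.31. The normexp fit raised the dimmest 1% of spots to 307 and 403 intensity units on irisin replicates 2 and 4, against 2.94 to 6.99 on the other 6 arrays. An offset of 50 on the processed signal, chosen after seeing the data, gave 4 lower (Cldn14, Cldn23, Cldn7 and Gja1), 4195 probes and 11 related genes, and changed the sign of 9, of which 5 were not past the adjusted p in either fit and 4 were Krt23 at -0.46, Ocln at -0.55, Gjb2 at -0.53 and Gja1 at -0.60. A constant added to every probe pulls the dim ones toward it before the brighter irisin arrays are scaled down. For dim probes such as those of Cldn7, Cldn14, Cldn23, Ocln and Gja1, the signal over background limits what the arrays resolve. The cause of the other shifts was not tested.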
